A study of Mus musculus with 8 samples.

Results

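Oligodendrocyte precursor cells (OPCs) were the nuclei to which the authors gave the cell type OPC in the snRNAseq of adult mouse hippocampus. They numbered 984 of the 29425 nuclei in 4 samples, 89 and 443 in mutant replicates 1 and 2 and 218 and 234 in control replicates 1 and 2. Each sample held the nuclei of both hippocampi of 1 male, 12-week-old mouse. Mutants were *Wls fl/-;Gfap-Cre* and controls *Wls fl/+;Gfap-Cre*, with 2 mice per genotype, so that every mouse carried the *Gfap-Cre* transgene and a floxed copy of *Wls*. Cre was driven by a *Gfap* promoter that is active in the neural progenitors from which neurons and macroglia arise. A recombined control cell keeps 1 functional copy of *Wls* whereas a recombined mutant cell keeps none. A cell without recombination has 2 functional copies in controls and 1 in mutants. The mutants lack a corpus callosum and most dentate granule cells (DGCs), so that OPCs of the genotypes came from tissue of different make-up. Bulk RNAseq libraries of the whole hippocampus, again from 2 mutant and 2 control male mice of 12 weeks, were used beside the nuclei.

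OPCs are dividing glial cells that carry the PDGF receptor alpha and the proteoglycan NG2 and that give rise to myelinating oligodendrocytes through a short-lived committed stage. They remain in the adult hippocampus, where they lie in grey and white matter and receive synaptic input. Wls (Wntless) is the transmembrane carrier that takes Wnt proteins from the Golgi to the cell surface. Wnt ligands act through Frizzled and Lrp receptors and beta-catenin, and this pathway is known to set the pace at which OPCs mature.

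The label OPC was met by its markers. *Pdgfra*, which encodes the PDGF receptor alpha, was detected in 77.5% and 79.1% of OPC nuclei of control replicates 1 and 2 after each nucleus was thinned to 1500 UMIs (unique molecular identifiers), against 0.58% and 0.232% of CA1 pyramidal nuclei thinned in the same way. Among the 3947 genes at 50 or more CPM (a gene's UMIs per 1000000 UMIs) in control OPCs, the gene with the highest ratio to the next of 17 other deposited cell types was *Neu4*, a sialidase, at 139.8-fold. It was followed by *Gpr17*, a receptor of committed precursors, at 44.1-fold, and by *Susd5* at 34.6-fold and *Shc4*, an adaptor of receptor tyrosine kinases, at 32.9-fold. *Lhfpl3* ranked 6th at 24.3-fold, *Cspg4*, which encodes NG2, 9th at 20.1-fold, and *Cacng4*, an auxiliary subunit of AMPA receptors, 11th at 17.1-fold. *Vcan* (versican) and *Pdgfra* ranked lower, at 4.78-fold and 4.60-fold, with 189 and 234 CPM in the next types, deposited as inhibitory neurons 12 and 14. Those names are the authors' and were not checked here. These ratios describe the deposited clusters and were not tested.

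Depth was low and uneven. All deposited nuclei had 1500 UMIs or more, and OPC nuclei lay near that floor, with medians of 2030 and 2794 UMIs in mutant replicates 1 and 2 and of 2111 and 3608.5 in control replicates 1 and 2. Nuclei below 2000 UMIs were 48.3% and 6.32% of mutant OPCs and 36.2% and 2.14% of control OPCs. Depth thus followed the replicate number, with replicate 1 the shallower in both genotypes. Oligodendrocyte nuclei did so too, at 73 and 1112 in mutant replicates 1 and 2 and 232 and 1029 in control replicates 1 and 2. Summed over OPCs the samples gave 190004, 1287042, 487792 and 879277 UMIs, so that mutant replicate 1 had the least weight. Between libraries 87 cell barcodes were shared, 4 OPC nuclei carried one of them, and none was shared by 2 OPC nuclei. Y-linked transcripts were present in OPCs of all 4 mice, and *Xist* had at most 4 UMIs in any of them, as the labels give males.

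OPCs made up 1.68% of the nuclei of mutant replicate 1 (exact 95% binomial interval 1.35 to 2.06%), 4.24% of mutant replicate 2 (3.86 to 4.64%), 3.37% of control replicate 1 (2.94 to 3.84%) and 3.25% of control replicate 2 (2.86 to 3.69%). Intervals here cover counting error only. With all nuclei as the total, the mutants lay on either side of both controls. Since the mutants lack most granule cells, the share of all other nuclei was also taken. It was 1.71% and 4.43% in mutants and 5.28% and 4.51% in controls, so that both mutants lay below both controls. Across 13 groups of cell types, in edgeR's quasi-likelihood test, the OPC share of all nuclei had a log2 FC of -0.16 (SE 0.685) and an FDR of 0.894 with Benjamini-Hochberg adjustment. The share of nuclei other than granule cells had a log2 FC of -0.67 (SE 0.746, FDR 0.756 over 12 groups). The comparison with all nuclei rested on mutant replicate 1, since the log2 FC was 0.35 without it and -0.98 without mutant replicate 2 (FDR 0.0692). Per 100 astrocytes there were 53.3 and 47.2 OPCs in the mutants and 44.4 and 41.0 in the controls, a closer range than the 122 and 39.8 against 94.0 and 22.7 OPCs per 100 oligodendrocytes.

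**Figure D1:**
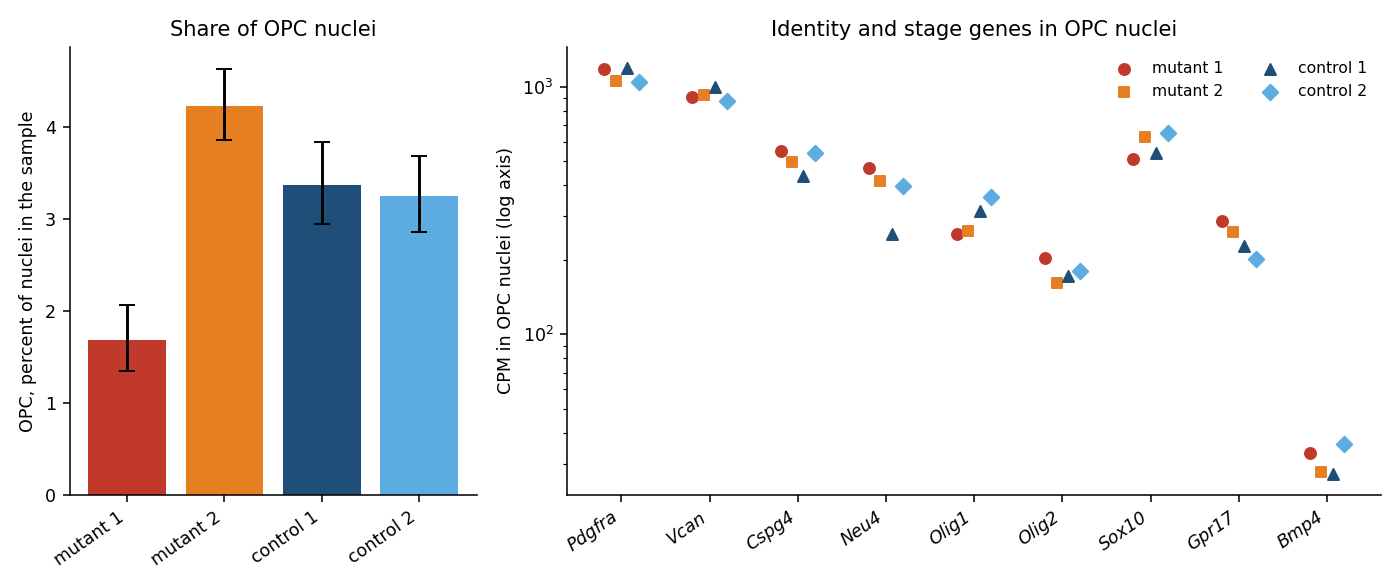
Left, OPC nuclei as a percentage of all nuclei of each sample, with exact 95% binomial intervals. Right, CPM (log axis) in the summed OPC nuclei of each sample for 9 genes of identity and stage, where the 4 samples lie close together for *Pdgfra* and *Vcan* and *Bmp4* is the lowest of the 9.

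*Pdgfra*, *Vcan* and *Cspg4* had similar levels in the genotypes. CPM here is relative to the UMIs of a sample in tested genes, after TMM scaling of the summed OPC nuclei. *Pdgfra* was at 1187 and 1061 CPM in mutant replicates 1 and 2 and at 1197 and 1045 CPM in control replicates 1 and 2, a log2 FC of -0.01 (95% interval -0.29 to 0.28). *Vcan* was at 911 and 933 CPM against 998 and 881 CPM (log2 FC -0.02), and *Cspg4* at 552 and 499.5 CPM against 437 and 541 CPM (log2 FC 0.08). For all of these the genotypes overlapped.

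Of the 20 OPC markers all were tested and none passed FC above 2 and FDR below 0.05, where 0.011% of the 9122 genes tested were called higher and 0.121% lower in mutant OPCs. Their median log2 FC was -0.01, the same as the median of all genes tested. The markers farthest from 0 were *Matn4*, a matrilin of the extracellular matrix, at 298 and 278 CPM against 349 and 424 CPM (log2 FC -0.45, FDR 0.494), and *Neu4* at 469 and 417 CPM against 255 and 398 CPM (log2 FC 0.39, FDR 0.598). *Olig1*, a transcription factor of the lineage, had 254 and 262 CPM against 314 and 360.4 CPM (FDR 0.57), while its partner *Olig2* overlapped at 204 and 161 CPM against 172 and 180.2 CPM. *Tnr*, which encodes tenascin-R, had 5741 and 5545 CPM against 4322 and 4673 CPM (log2 FC 0.33, FDR 0.374). Both mutants lay above both controls for 5 markers and below for 4, against 18.5% and 19.9% of all genes tested. Among the 20 genes that led OPCs by ratio, none passed either, and the median log2 FC was 0.09. Their log2 FCs ran from -0.26 for *Shc4* to 0.76 for *Gm42948*, which lies within *Lhfpl3* on the other strand. Both mutants lay above both controls for *Neu4*, *Gpr17*, *Gm42948*, *Gucy2f*, *Car8* and *Myt1* and below for *A930009A15Rik* and *Scel*. *Myt1* was at 513 and 435 CPM against 308 and 306 CPM (log2 FC 0.60, FDR 0.272), and *Car8* at 215 and 258 CPM against 155 and 162 CPM (log2 FC 0.62, FDR 0.321).

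Committed precursors are recognised by *Gpr17*, *Bmp4* and *Enpp6*, and *Tcf7l2* is a Wnt pathway transcription factor that comes on at the same stage. *Gpr17* was at 287 and 259 CPM in mutants and 228 and 201 CPM in controls, with both mutants above both controls and a log2 FC of 0.33 (SE 0.185, FDR 0.649). Thinned to 1500 UMIs, 31.5% and 27.5% of mutant OPC nuclei had a *Gpr17* UMI, against 26.1% and 22.7% in controls, and the intervals of all 4 samples overlapped. In CA1 nuclei, which should lack the gene, the share was at most 0.149%. Without thinning, the shares were 40.4% and 49.4% against 33.0% and 45.3%, and then the genotypes overlapped.

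*Tcf7l2* UMIs were found in 24.7% and 25.3% of thinned mutant nuclei and 23.4% and 27.4% of control nuclei, and *Bmp4* UMIs in 3.37% and 4.06% against 2.29% and 5.13%. Thinned astrocytes had *Tcf7l2* UMIs in 41.9% and 48.7% of mutant and 43.6% and 38.6% of control nuclei. The share with *Tcf7l2* is therefore not a share of committed precursors. *Enpp6* had 0 UMIs in 2 of the 4 samples. Of 18 committed precursor genes 15 were tested, none was called, and the median log2 FC was 0.09. *Bcas1*, the most abundant of them, was at 574 and 499 CPM against 527 and 545 CPM. The largest with no overlap between genotypes were *Lims2* at 93.8 and 113 CPM against 58.6 and 86.0 CPM (log2 FC 0.54, FDR 0.585) and *Nfasc*, which encodes neurofascin, at 259 and 255 CPM against 199 and 201 CPM (log2 FC 0.36, FDR 0.607). *Gpr17* (chr18:31942997-31949636, minus strand) lies within *Lims2* (chr18:31922290-31958619, plus strand). Whether tags of 1 were counted for the other was not tested.

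Of 6 committed precursor genes compared between nuclei with and without a *Gpr17* UMI, *Bcas1* and *Lims2* were higher in those with one in all 4 samples. Since *Gpr17* lies within *Lims2*, the counts of these genes come from the same locus and are not independent. *Bcas1* was at 964, 803, 983 and 1208 UMIs per 1000 nuclei with *Gpr17* and at 787, 689, 658 and 707 without, in mutant replicates 1 and 2 and control replicates 1 and 2. Before thinning, *Bmp4* gave 6 and 34 UMIs in mutant replicates 1 and 2 and 13 and 31 in control replicates 1 and 2. Its rates therefore rest on few UMIs. In thinned nuclei of control replicate 2, those with a *Gpr17* UMI held 132 *Bmp4* UMIs per 1000 nuclei and those without 38.7, and in control replicate 1 the values were 70.2 and 31.1. In mutant replicate 2 they were 41.0 and 46.7, from 122 nuclei with and 321 without. In mutant replicate 1 they were 35.7 and 32.8, from 28 nuclei with and 61 without. *Pdgfra* was as frequent in both, at 1660 and 1602 UMIs per 1000 nuclei in control replicate 2 and 1590 and 1477 in mutant replicate 2.

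Signs of division and of maturity were scarce. None of the 22 cell cycle genes passed the filter on low counts, and thinned nuclei with UMIs of 2 or more of them were 3 of 89 and 3 of 443 in mutants and 0 of 218 and 1 of 234 in controls. The 0 allows a share of up to 1.38%. *Top2a*, a topoisomerase of dividing cells, had a UMI in 1 of the 984 thinned nuclei. Any of 6 genes of mature oligodendrocytes was seen in 2.25% and 7.0% of mutant and 5.5% and 7.26% of control OPC nuclei. In CA1 nuclei, with far higher median depth before thinning (5270 to 12164 UMIs), the shares were 2.2% and 4.15% against 2.98% and 4.71%. The share was thus level with that in neurons in mutant replicate 1 and above it in the other samples.

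*Wls*, the deleted gene, was the most reduced transcript in mutant OPCs. It gave 0 and 9 UMIs in mutant replicates 1 and 2 and 23 and 56 UMIs in control replicates 1 and 2, that is 0 and 7.38 CPM against 48.1 and 65.1 CPM. The 0 in mutant replicate 1 allows up to 16.6 CPM. It also allows up to 3.37% of nuclei with a UMI, which does not limit the nuclei that express the gene, since after thinning 6.88% and 10.3% of control OPC nuclei had a *Wls* UMI. The genotypes did not overlap, with a fitted log2 FC of -3.16 (SE 0.469, FDR 0.00634 in edgeR). *Wls* spans chr3:159839672-159938664 on the plus strand (mm10). The nuclei were profiled by tags from 3' ends, and which exon is floxed is not given in the sources used here, so tags from a recombined allele may remain.

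*Wls* was also low in the other macroglia of the mutants. Oligodendrocytes had 0 and 5.06 CPM against 76.9 and 89.0 CPM (log2 FC -4.14), and astrocytes 2.91 and 2.08 CPM against 49.9 and 39.6 CPM (log2 FC -4.28). OPCs did not differ from either in the interaction of genotype with cell type (FDR 1 and 0.993). For the other types *Wls* is given per 1000000 UMIs of the type, with no TMM scaling, a scale on which OPCs had 0 and 6.99 against 47.2 and 63.7. On it, microglia, which do not descend from neural progenitors, had 46.4 and 91.8 against 159.7 and 208, from 1, 63, 29 and 150 UMIs. Cells without recombination also differ between the genotypes in functional copies of *Wls*, and the part of this was not tested. CA2 nuclei, with 3 to 9 UMIs each, had 4.84 and 3.88 against 2.90 and 4.77.

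Other genes of the Wnt pathway passed no threshold in OPCs. Of 19 Wnt ligands 4 were tested, and the highest in controls were *Wnt7b* at 38.6 and 32.8 CPM in mutants and 46.0 and 33.7 CPM in controls and *Wnt7a* at 44.2 and 43.5 CPM against 39.8 and 37.2 CPM. *Porcn*, the acyltransferase that adds the lipid by which Wls binds Wnts, was at 27.6 and 24.6 CPM against 39.8 and 31.4 CPM (log2 FC -0.46, FDR 0.779). Of 22 receptors 10 were tested with a median log2 FC of 0.08, among them *Ror1*, the most abundant, at 121 and 218 CPM against 161 and 165 CPM, *Lrp6* at 116 and 112 CPM against 121 and 119.7 CPM and *Lgr5* at 99.4 and 144 CPM against 69.1 and 108 CPM. Intracellular effectors (27 of 31 tested, median 0.01) and feedback targets (8 of 20 tested, median 0.10) had no called member either, and *Prickle2*, the most abundant effector, was at 491 and 402 CPM against 433 and 339 CPM. *Rnf43*, a ubiquitin ligase that removes Frizzled receptors and is itself a target of the pathway, had 160.1 and 150.1 CPM against 121 and 151 CPM (FDR 0.901), and its paralogue *Znrf3* 138 and 112 CPM against 151 and 102 CPM.

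The genotype test in OPCs called 12 genes, 1 higher and 11 lower, while 3.57% and 4.88% of all genes were higher and lower at an unadjusted p below 0.05. *Ubb*, a polyubiquitin gene (chr11:62551171-62553213), was at 55.2 and 67.3 CPM in mutants and 232 and 205 CPM in controls (log2 FC -1.74, SE 0.223, FDR 0.00218). The tetraspanin *Cd9* (chr6:125460266-125494791) was at 248 and 195 CPM against 511 and 555 CPM (log2 FC -1.34, SE 0.178, FDR 0.00218). A further tetraspanin, *Cd81* (chr7:143052739-143067934), was at 342 and 258 CPM against 576 and 582 CPM (log2 FC -1.02, FDR 0.0138). For each of them both mutants lay below both controls.

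4 of the lower genes encode secreted or processed proteins, chosen here as a group after their values were seen. *Cst3* (cystatin C, an inhibitor of cysteine proteases, chr2:148871722-148875692) was at 177 and 168 CPM against 381 and 369.7 CPM (log2 FC -1.14, FDR 0.0125). *Apoe* (a carrier of lipids, chr7:19696109-19699188) was at 431 and 390.4 CPM against 707 and 1726 CPM (log2 FC -1.60, FDR 0.0127), and its controls differed more from each other than control replicate 1 did from the mutants. *Pcsk1n* (proSAAS, an inhibitor of prohormone convertase, chrX:7919822-7924410) was at 121 and 109.9 CPM against 303 and 244 CPM (log2 FC -1.26, FDR 0.0127).

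*Itm2b*, whose membrane protein is cleaved to release a short peptide (chr14:73362226-73385289), was at 237 and 130.4 CPM against 383 and 342 CPM (log2 FC -1.17, FDR 0.0451). *Bsg* (basigin, which escorts lactate transporters to the membrane, chr10:79704491-79711969) was at 116 and 55.0 CPM against 182 and 233 CPM (log2 FC -1.62, FDR 0.0127). Both mutants were again below both controls, and for *Itm2b* and *Bsg* they differed from each other by more than the controls did.

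*Tenm4*, a teneurin that bridges cells by binding latrophilins (chr7:96171246-96911093), was the gene called higher. It gave 7 and 75 UMIs in mutants and 5 and 14 UMIs in controls, or 38.6 and 61.5 CPM against 10.5 and 16.3 CPM (log2 FC 1.99, SE 0.383, FDR 0.0447). The call was lost in 6 of 14 alternative analyses, among them after removal of 4 OPC nuclei marked as doublets, and its log2 FC stayed between 1.43 and 2.44. Its paralogue *Tenm2* was at 596 and 542 CPM against 406 and 346 CPM (log2 FC 0.59, FDR 0.254) and *Tenm3* at 116 and 106 CPM against 85.8 and 73.2 CPM (FDR 0.615). Of 7 teneurins and latrophilins, listed after their values were seen, 6 were tested, all with a log2 FC above 0 and a median of 0.42.

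**Figure D2:**
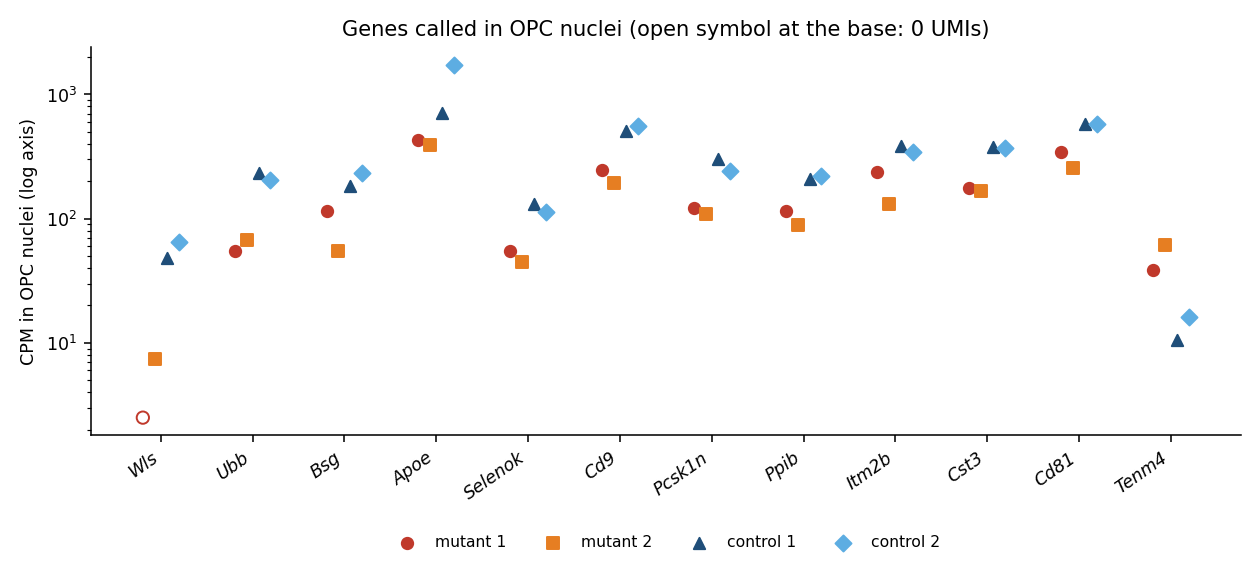
CPM (log axis) in the summed OPC nuclei of each sample for the 12 genes called at FC above 2 and FDR below 0.05, ordered by log2 FC. Both mutant samples lie outside the range of both controls for every gene, and *Wls* had 0 UMIs in mutant replicate 1.

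The last pair of lower genes act in the endoplasmic reticulum (ER), where secreted and membrane proteins fold. *Ppib* (cyclophilin B, a proline isomerase, chr9:66060222-66066623) was at 116 and 88.6 CPM against 209 and 219.7 CPM (log2 FC -1.18, SE 0.214, FDR 0.0282). *Selenok* (a selenoprotein of the ER membrane, chr14:29968308-29975662) was at 55.2 and 45.1 CPM against 132 and 113 CPM (log2 FC -1.36, SE 0.261, FDR 0.0447). The genotypes did not overlap for either. Of 14 alternative analyses the call of *Ppib* was lost in 4 and that of *Selenok* in 5, with an FDR of up to 0.852 and 1.0.

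A list of 26 genes of ER folding and secretion was drawn up after these values were seen, so its direction is no independent evidence. Of its 22 tested members all had a log2 FC below 0, with a median of -0.82, and 18 had both mutants below both controls, against 19.9% of all genes tested. *Ppib* and *Selenok* were the 2 that were called (0.121% of all genes), and 13 were lower at an unadjusted p below 0.05 (4.88% of all genes). *Hspa5*, the ER chaperone BiP, was at 88.3 and 61.5 CPM against 98.4 and 238 CPM (log2 FC -1.39, FDR 0.134), so that control replicate 1 lay much nearer to the mutants than to control replicate 2. *Calr*, the lectin chaperone calreticulin, was at 144 and 140.3 CPM against 203 and 352 CPM (log2 FC -1.01, FDR 0.134). *Dnajb11*, a cochaperone of BiP, was at 27.6 and 26.2 CPM against 58.6 and 74.4 CPM (log2 FC -1.35, FDR 0.134). The lower level was not particular to OPCs. *Hspa5* and *Calr* had log2 FCs of -1.22 and -0.96 in oligodendrocytes and of -0.91 and -0.82 in astrocytes of the same mice. Neither was called there, and neither had an interaction with OPCs at an FDR below 0.05.

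The median of this list was -0.52 without control replicate 2 and -0.64 when genes were scaled within 10 bins of genomic span. Cytosolic chaperones (15 of 19 tested, listed at the same time) had a median of -0.73 with 0 called, and *Hspa8*, the constitutive heat shock cognate protein, was at 49.7 and 64.8 CPM against 90.0 and 192 CPM (FDR 0.159).

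Many ER chaperone genes are controlled through the ER stress element, with the letters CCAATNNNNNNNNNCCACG. The element was looked for on both strands in the RefSeq promoters of GRCm38.p6, from 250 bases before to 50 after the start, and was found in 39 of 32851 promoters (0.119%). It was in 7 of the 26 listed ER genes, 23 of which had a promoter in the table. The 250 bases before the start are shown for 4 listed chaperone genes that were tested in OPCs, because these genes lay lower together in mutants, 5′ to 3′ on the strand of the gene. Capitals mark the fixed letters of the element, read as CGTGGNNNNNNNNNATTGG where it lies on the other strand.
Hspa5 (chr2:34771840-34772089, plus strand): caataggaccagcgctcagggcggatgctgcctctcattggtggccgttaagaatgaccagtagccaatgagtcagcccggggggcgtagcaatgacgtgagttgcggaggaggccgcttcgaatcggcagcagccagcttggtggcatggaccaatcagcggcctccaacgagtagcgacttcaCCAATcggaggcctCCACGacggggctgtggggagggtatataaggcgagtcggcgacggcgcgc
Calr (chr8:84846932-84847181, minus strand): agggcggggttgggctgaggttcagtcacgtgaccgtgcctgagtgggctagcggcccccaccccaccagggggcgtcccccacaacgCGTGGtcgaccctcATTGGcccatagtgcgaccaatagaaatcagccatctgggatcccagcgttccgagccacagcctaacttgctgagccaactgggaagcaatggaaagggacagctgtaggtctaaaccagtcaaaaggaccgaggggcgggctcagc
Hsp90b1 (chr10:86705445-86705694, minus strand): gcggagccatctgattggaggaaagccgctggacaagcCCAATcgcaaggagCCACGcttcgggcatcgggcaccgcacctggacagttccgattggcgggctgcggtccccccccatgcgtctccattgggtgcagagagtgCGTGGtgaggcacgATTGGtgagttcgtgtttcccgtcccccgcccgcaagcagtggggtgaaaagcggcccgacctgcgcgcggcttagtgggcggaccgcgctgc
Pdia6 (chr12:17266339-17266588, plus strand): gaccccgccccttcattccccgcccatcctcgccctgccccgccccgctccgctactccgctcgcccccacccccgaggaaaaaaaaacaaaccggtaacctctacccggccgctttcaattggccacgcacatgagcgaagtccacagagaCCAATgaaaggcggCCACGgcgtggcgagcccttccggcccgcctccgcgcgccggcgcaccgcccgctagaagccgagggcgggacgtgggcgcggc

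The promoter of *Hsp90b1*, which encodes the ER paralogue of HSP90, held 2 elements and each of the others 1. *Hsp90b1* was at 110.4 and 103 CPM in mutants and 161 and 230.2 CPM in controls (log2 FC -0.92, FDR 0.159), and *Pdia6*, a protein disulfide isomerase, at 60.7 and 48.4 CPM against 67.0 and 130.2 CPM (log2 FC -1.02, FDR 0.317). Of the 11 genes tested in OPCs whose promoter held the element, 6 were on the ER list and had log2 FCs from -1.39 for *Hspa5* to -0.20 for *Canx*, and 5 were not and had log2 FCs from 0.03 for *Adcy3* to 0.27 for *Spats2l*. The ER list was drawn up after its values were seen, and all its tested members were lower in mutants. The 6 lower values were thus fixed beforehand, and this split is no evidence on the element. None of the genes whose promoters are shown was called. A match is a description of the letters and not of binding.

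The genes called in OPCs were compared with the other cells of the same mice. *Ubb* was lower in both mutants than in both controls in 17 of 17 other deposited types with 10 or more nuclei per sample, *Cst3*, *Bsg*, *Cd81*, *Selenok* and *Itm2b* in 16, *Pcsk1n* in 15, *Ppib* in 13, *Wls* in 12, *Apoe* in 11 and *Cd9* in 7. *Cd9* was higher in both mutants in 2 types and *Wls* in 1. *Tenm4* was higher in both mutants in 11 of 17. Of the 9122 genes tested in OPCs, 17 to 31.7% were lower and 12.2 to 18.7% higher in both mutants in these types. These types come from the same 4 mice and are not independent.

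In oligodendrocytes *Cd9* was at 111 and 123 CPM against 323 and 402 CPM (log2 FC -1.61) and *Apoe* at 148 and 309.9 CPM against 309.9 and 989 CPM (log2 FC -1.40). In astrocytes, where *Apoe* is most abundant, it was at 2596 and 2215 CPM against 3405 and 6902 CPM (log2 FC -1.10), and *Tenm4* at 137 and 180.3 CPM against 40.3 and 85.1 CPM (log2 FC 1.34). For none of the 12 genes did the genotype difference itself differ between OPCs and oligodendrocytes or astrocytes at an FDR below 0.05, the nearest being *Bsg* against oligodendrocytes (difference -1.10, SE 0.289, FDR 0.137).

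**Figure D3:**
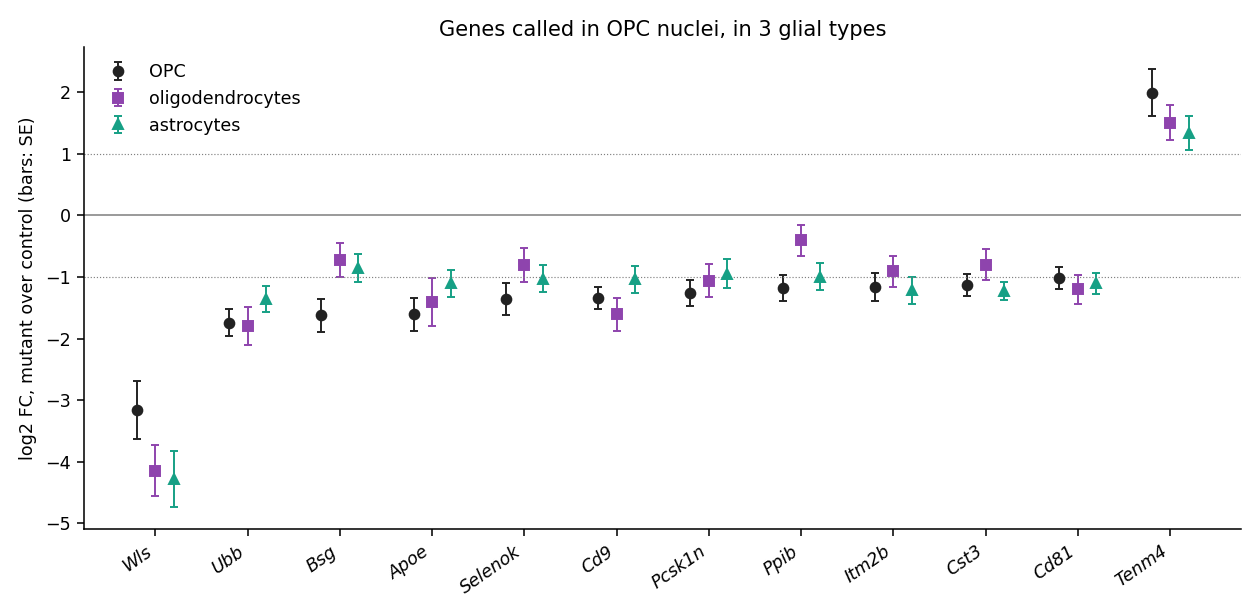
log2 FC of mutant over control with its SE for the 12 genes called in OPCs, in OPCs, oligodendrocytes and astrocytes of the same 4 mice. Dotted lines mark a 2-fold change, and every gene has the same direction in the 3 types.

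Transcripts of other cells can reach nuclei as free RNA, and their levels were compared between genotypes. In OPCs the 12 astrocyte markers summed to 1336 and 1463 CPM in mutants and 1465 and 1454 CPM in controls, the 12 microglia markers to 93.8 and 107 CPM against 75.3 and 109 CPM, and the 12 inhibitory neuron markers to 2804 and 2809 CPM against 2823 and 2526 CPM. The 12 granule cell markers, some of which OPCs express themselves, summed to 2599.8 and 2854 CPM against 2411 and 2592 CPM, and the 12 excitatory neuron markers to 839 and 919 CPM against 1023 and 829 CPM. The genotypes overlapped for each of these lists but that of granule cells, where both mutants lay above both controls. The same held for 2 lists of few UMIs, the 12 endothelial markers at 38.6 and 40.2 CPM against 25.1 and 22.1 CPM and the 8 ependymal markers at 16.6 and 14.8 CPM against 4.19 and 12.8 CPM. The part of such RNA in the calls was not tested. All astrocyte, microglia and neuron markers had a UMI in some sample, and the choroid plexus genes *Aqp1*, *Otx2* and *Cldn2* were at 0 in all 4. Without the 10% of OPC nuclei with the most astrocyte and *Apoe* signal, a selection added after the data were seen, 1 gene was called higher and 12 lower.

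The length of a gene moved with genotype. In the shortest of 10 bins of tested genes, spanning 0.348 to 7.31 kb, the median log2 FC was -0.34, with 76.1% of genes below 0. It was 0.14 in the longest bin, spanning 193 to 4435 kb, with 25.8% below 0. Genes under 5 kb held 2.37% and 2.77% of the OPC UMIs of mutants and 3.41% and 3.45% of those of controls. For genes under 10 kb the shares overlapped, at 12.5% and 13.3% against 12.2% and 14.6%. Between replicates of 1 genotype the median of the shortest bin was -0.10 (mutant 1 over 2) and 0.04 (control 1 over 2).

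Of 30 abundant short transcripts 27 were tested, 26 lay below 0 and the median was -0.53. *Ubb*, *Apoe*, *Cst3* and *Itm2b* were called, against 0.121% of all genes called lower. The list was chosen with earlier results of these data known, so its direction is no independent evidence. *Itm2b* spans 23.064 kb, which lies outside the shortest bin. With genes scaled within bins of span, 0 genes were called higher and 3 lower, namely *Wls*, *Cd9* and *Ubb*, which span 99.0, 34.5 and 2.04 kb. The part of gene length in the other calls was not tested further.

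**Figure D4:**
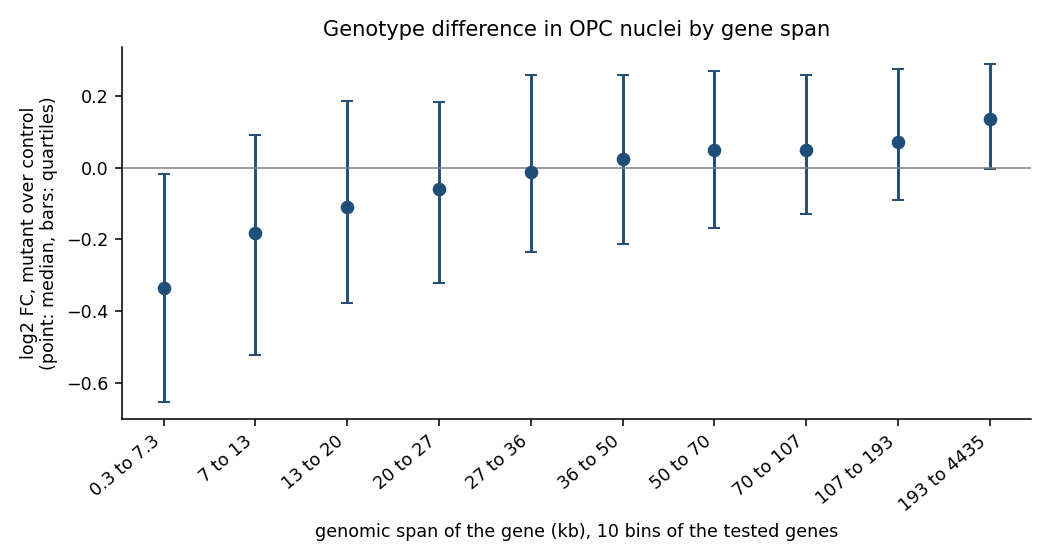
Median (points) and quartiles (bars) of the log2 FC of mutant over control in OPC nuclei for 10 bins of genomic span in kb, over the tested genes with a known span. The median rises from -0.34 in the shortest to 0.14 in the longest bin.

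Receptors and adhesion molecules by which OPCs sense neurons had no called member. Of 40 glutamate and GABA receptor genes 36 were tested, with a median log2 FC of 0.12. *Gria2*, an AMPA receptor subunit, was at 1352 and 1057 CPM against 1310 and 1122 CPM. Of 34 ion channel genes 31 were tested (median 0.14), led by *Kcnd2*, a potassium channel of the A type, at 3798 and 3686 CPM against 3895 and 3435 CPM.

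Of 44 growth factor receptors and ligands 30 were tested with a median of 0.00, and *Erbb4*, a neuregulin receptor, was at 2092 and 2168 CPM against 2166 and 1971 CPM. Lineage transcription factors (26 of 31 tested, median -0.03) were led by *Tcf4* at 1617 and 1950.5 CPM against 1691 and 1690.4 CPM. Extracellular matrix genes (24 of 32 tested, median 0.09) and genes of axon guidance and adhesion (46 of 54 tested, median 0.13) had none called, and *Lsamp*, the most abundant of the adhesion genes, was at 13319 and 11856 CPM against 12906 and 10638 CPM.

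**Figure D5:**
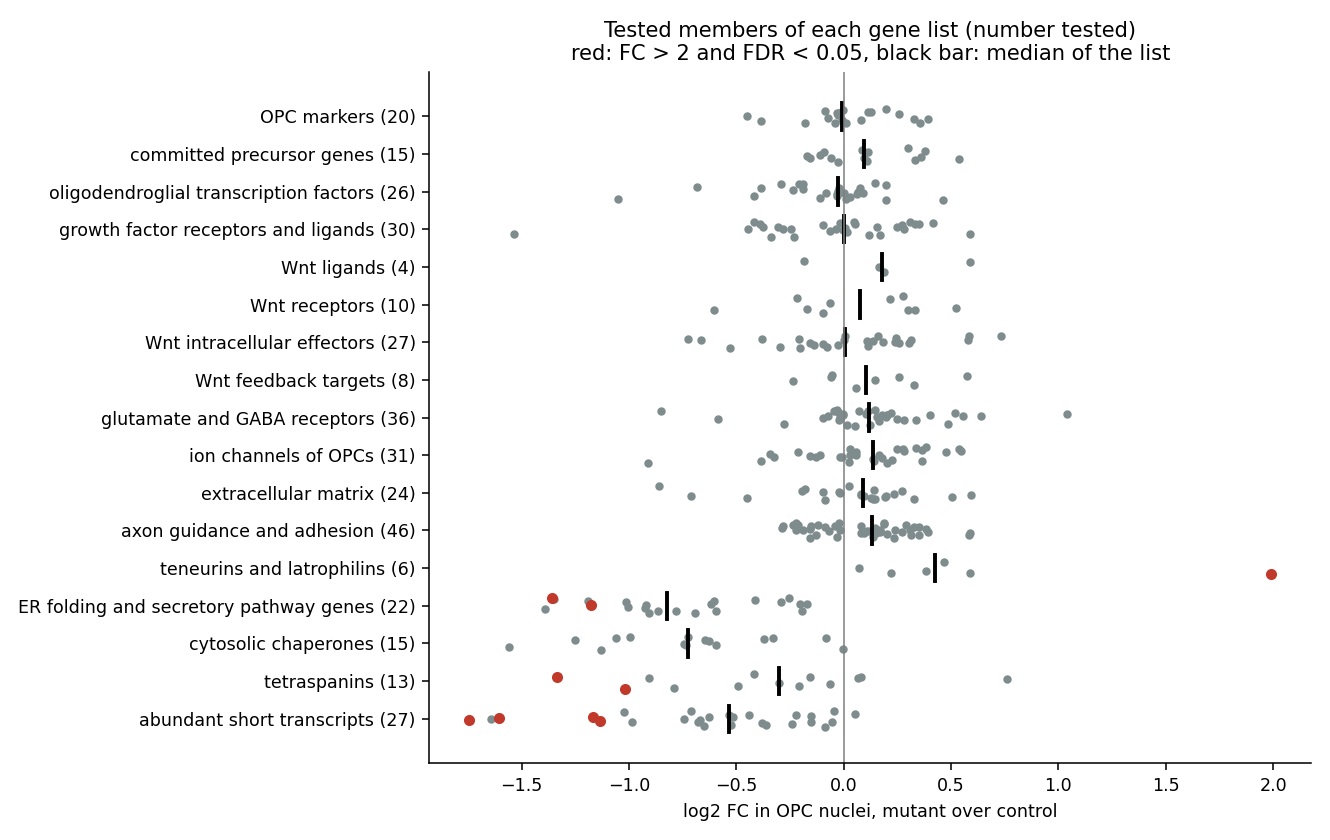
log2 FC of mutant over control in OPC nuclei for the tested members of 17 gene lists, with the number tested in brackets, called genes in red and the median as a black bar. The median of the OPC markers lies at -0.01, and those of ER folding genes and cytosolic chaperones at -0.82 and -0.73, lists that were drawn up after their values were seen.

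Genes whose genotype difference set OPCs apart were few. Against oligodendrocytes 4 genes had an interaction at an FDR below 0.05 (0.0399% of 10037), and against astrocytes 20 (0.172% of 11598). *Sgk1*, a kinase induced by glucocorticoids, was level in OPCs at 204 and 228 CPM in mutants and 216 and 231 CPM in controls. In oligodendrocytes it was at 14.8 and 59.8 CPM against 179 and 131 CPM, and the difference of the log2 FCs was 1.42 (SE 0.272, FDR 0.00199). *Nnat* was at 243 and 329.7 CPM against 308 and 367 CPM in OPCs and at 355 and 382 CPM against 128 and 198 CPM in astrocytes (difference -1.32, SE 0.209, FDR 7.1e-06).

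In bulk RNAseq, fewer cells of a type and less RNA per cell cannot be told apart. None of the 20 OPC markers was called there, where 0.396% of 20687 genes passed FC above 2 and FDR below 0.05, and their median log2 FC was 0.03. *Pdgfra* was at 61.6 and 60.0 CPM in mutants and 57.5 and 59.8 CPM in controls (log2 FC 0.05, SE 0.0503), and *Gpr17* at 46.1 and 45.5 CPM against 49.5 and 59.7 CPM (log2 FC -0.25, FDR 0.252), the opposite sign to that in the nuclei. *Tenm4* was at 187 and 185 CPM against 138.7 and 130.0 CPM in the whole tissue (log2 FC 0.47, SE 0.0546, FDR 0.0379), below the 2-fold threshold.

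*Wls* was at 3.67 and 6.86 CPM against 13.2 and 13.03 CPM in bulk RNAseq (log2 FC -1.31, FDR 0.117). Of the 11 genes called lower in OPC nuclei 10 were tested in bulk, where 8 had a log2 FC above 0 and *Wls* and *Ppib* were below. *Cd9* had 48.8 and 58.1 CPM against 38.4 and 38.0 CPM (log2 FC 0.49, FDR 0.0949), *Apoe* 1087 and 1027 CPM against 918 and 904 CPM (log2 FC 0.22, FDR 0.148) and *Cst3* 605 and 587 CPM against 534 and 521 CPM (log2 FC 0.18, FDR 0.18). For these 3 genes both mutants lay above both controls in bulk and below them in OPC nuclei. The bulk tissue of the genotypes differed in make-up. The 12 choroid plexus markers, each higher in both mutants, summed to 1218 and 8579 CPM in mutants and 323.9 and 206.3 CPM in controls, and the 12 granule cell markers to 340.4 and 285 CPM against 1113 and 1068 CPM. The part of this in the bulk values was not tested. The 24 tested ER folding genes had a median log2 FC of 0.00 in bulk RNAseq, with 1 higher and 1 lower at an unadjusted p below 0.05.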

How the data were processed

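The authors deposited snRNAseq UMI counts per gene and nucleus, without normalization, for 4 mice (10x 3' v3 libraries, Cell Ranger 3.1.0, a pre-mRNA index of mm10), and a cell type for each nucleus. For 4 bulk RNAseq libraries they deposited expected counts per gene, estimated with RSEM 1.3.0 and Bowtie2 2.2.9 per the labels and rounded here to whole numbers. TPM values, a normalised matrix and the size factors that the authors deposited as a ratio per nucleus were not used. Cell calling, clustering and annotation are thus the authors'. Doublet removal before deposit is not given in the sources used here.

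UMIs of OPC nuclei were summed per mouse and compared with edgeR's quasi-likelihood test (edgeR 4.0.16 in R 4.3.3), with filterByExpr, TMM scaling, Benjamini-Hochberg adjustment over all genes tested, and calls at FC above 2 and FDR below 0.05. SEs are the log2 FC over the root of F. The CPM base left out the 3.33 to 3.74% of OPC UMIs that lay in untested genes. The same test was applied to counts of nuclei by cell type, with total nuclei as library size. The interaction was fitted over OPC and 1 other type with the mouse as block and called at FDR below 0.05. Nuclei were thinned with a fixed seed (numpy 2.4.6), and exact binomial intervals came from scipy 1.17.1. The limit that a count of 0 allows is 3 counts. The smallest p of an exact two-sided permutation test of 2 against 2 is 0.33, so none was used.

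In simulated data 200 genes were changed, drawn only from genes with a mean above 20 counts per sample. Recovery of genes with fewer counts was not measured. OPC sums recovered 98.5% of the changed genes at 4-fold (13 false calls, 9122 genes) and 76.5% at 2.5-fold (5 false calls). Bulk RNAseq recovered 88% at 4-fold (20 false calls, 20687 genes). Such data hold no differences between mice beyond the fitted spread. Single mice were the replicates, with 2 per genotype. The edgeR test draws the spread of a gene towards that of other genes, so p-values reflect only in part the gene's own spread between mice.

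Gene positions are those of gencode vM21 on GRCm38, which matched 24015 of 24051 gene IDs. Reads of near-identical genes cannot be told apart here, among them *Ubb* and other ubiquitin genes. The OPC nuclei and all gene lists were chosen with earlier results of these data known. The rule for named genes took *Wls*, the OPC markers, the 20 leading genes, the 4 most abundant and any called members of each list, the genes called in each test on OPCs, and stage genes, of which not all are printed. Other named members of lists and genes with the promoter element were chosen after their values were seen. The bulk genes called outside the lists are not OPC results and are not named. The lists of ER folding genes, cytosolic chaperones, tetraspanins, and teneurins and latrophilins were added after their values were seen. Listed genes without a row in the nuclei tables were not analysed here. The values of 1 further gene that this rule takes are not reported here.

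Alternatives were RLE scaling, DESeq2 1.42.0, no filter on low counts, other fold changes, the replicate number as a block, each sample left out in turn, nuclei selected by UMIs, by markers or by Scrublet (scanpy 1.11.5), thinning, and other totals. Scaling within 10 bins of genomic span, a floor of 2000 UMIs, removal of nuclei with the most astrocyte signal, and leaving out samples in the interaction were added after seeing the data. Scrublet marked 1 nucleus of mutant replicate 1 (0.019%), so it did not work there.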

Additional observations from a re-analysis of the deposited data

Results flagged for a closer look

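The genotype difference of 24 gene and cell type pairs differed between OPCs and another glial type of the same mice at an FDR below 0.05. Differences below are the log2 FC in OPCs minus that in the other type. With 2 samples per genotype no sample was tested as an outlier.

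Against oligodendrocytes the difference was 1.42 for *Sgk1* and 1.21 for *P4ha1*, a subunit of collagen prolyl hydroxylase, and -1.46 for *Grip1*, a scaffold of AMPA receptors, and -1.56 for the proton-gated channel *Asic2*. All 4 had OPC log2 FCs between -0.56 and 0.09. *P4ha1* was at 155 and 96.8 CPM in mutant and 165 and 163 CPM in control OPCs, and at 59.2 and 104 CPM against 326 and 371 CPM in oligodendrocytes.

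Against astrocytes the difference was above 0 for 9 genes, at 1.07 for *Cdh4*, 1.74 for *Them4*, 1.01 for *Rbms3*, 1.71 for *Gm45881*, 3.18 for *Ranbp3l*, 1.43 for *Pde10a*, 4.02 for *Efna5*, 1.09 for *Dcc* and 1.60 for *Gfra1*. *Dcc*, a receptor of netrin, was at 1860 and 1910 CPM against 1812 and 1696 CPM in OPCs, far above its level in astrocytes of 96.1 and 64.4 CPM against 166 and 119 CPM. *Ranbp3l* and *Efna5* had 0 to 34 UMIs per sample in OPCs and were not tested there, so their differences rest on few counts. That of *Them4*, with 4 to 38 UMIs per sample in OPCs, does so too.

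It was below 0 for 11 genes, at -1.32 for *Nnat*, -0.80 for *Fry*, -0.74 for *Kcnd2*, -0.90 for *Ntrk3*, -2.26 for *Lmo1*, -2.19 for *Iqck*, -1.37 for *Ppp1r14c*, -0.95 for *Grip1*, -1.33 for *Zdhhc2*, -2.98 for *Vat1l* and -1.03 for *Fgf14*. The differences of *Lmo1*, with 2 to 28 UMIs per sample in OPCs, and of *Iqck*, with 1 to 15, rest on few counts. *Fgf14*, a regulator of sodium channels, was at 2771 and 2188 CPM against 2193 and 1884 CPM in OPCs and at 1156 and 708 CPM against 341 and 367 CPM in astrocytes. *Ntrk3*, the receptor of neurotrophin 3, was at 856 and 869 CPM against 862 and 735 CPM in OPCs and at 157 and 187 CPM against 77.0 and 91.5 CPM in astrocytes. *Nnat* and *Fgf14* were called against astrocytes in all 6 alternatives, while *Cdh4*, *Fry*, *Iqck* and *Them4* were called in 1 of 6.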

How the results depend on the processing

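In OPCs the 1 gene higher and 11 lower became 0 and 2 with DESeq2 (*Cd9* and *Ubb*), 9 and 27 with no filter on low counts, 6 and 33 with the replicate block and 0 and 3 with scaling by gene span. No gene was higher without nuclei of high UMIs or without Scrublet doublets. Leaving out 1 sample gave 1 to 21 genes higher and 4 to 37 lower: 21 and 37 without mutant replicate 1, 1 and 4 without mutant replicate 2, 9 and 35 without control replicate 1, and 20 and 11 without control replicate 2. *Ubb* kept its call in 14 of 14 alternatives, *Cd9* in 13 and *Wls* in 12 (FDR 0.257 with DESeq2), the other 8 lower genes in 9 to 11 and *Tenm4* in 8. The cause of these shifts was not tested. The labels do not state that same-numbered samples were paired, but replicate 1 had the lower depth in both genotypes. Deviations of same-numbered samples had a correlation of 0.07 over genes. The block is given as a value, and whether it or the main test is the better choice was not tested. Genes whose estimate lay within 1 SE of 0 were given no direction, and of the others *Sel1l* turned to 0.10 in thinned nuclei. Over the samples left out, log2 FCs in OPCs crossed 0 for *Xylt1* (-0.038 to 0.25), *Pdia4* (-0.97 to 0.43) and *6030407O03Rik* (-0.14 to 0.55), as did the bulk values of *Ubb* (-0.026 to 0.46) and *Pcsk1n* (-0.0040 to 0.27) and the difference of *Ranbp3l* between OPCs and astrocytes (-4.23 to 3.45, negative without mutant replicate 2).

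The log2 FC of the OPC share was 0.38 with glial nuclei as total, -0.67 without granule cells in the total and -0.31 with the replicate block, and ran from -0.98 to 0.35 when 1 sample was left out. Against oligodendrocytes the interaction called 1 gene higher and 0 lower in OPCs with no filter and 1 lower with RLE, and 0 to 4 higher and 0 to 10 lower without 1 sample, with 0 in both directions without control replicate 1 (410 genes at an unadjusted p below 0.05, edgeR). Against astrocytes it called 6 lower with no filter, and 1 to 14 higher and 2 to 16 lower without 1 sample.

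In bulk RNAseq the 6 genes higher and 76 lower became 141 and 132 with DESeq2, 345 and 227 with no filter, 3 and 43 with the replicate block, and 0 to 401 higher and 0 to 268 lower without 1 sample. Differences in the share of OPC nuclei, mutant minus control in percentage points, changed with depth. With no thinning they were -1.77 for *Bmp4*, -3.17 for *Tcf7l2*, -4.84 for mature genes and -0.264 for cell cycle genes. At 3000 UMIs, which 2 control samples but only mutant replicate 2 could give, with 19 nuclei in control replicate 1, they were 16.6 for *Gpr17*, 3.21 for *Tcf7l2*, -8.71 for mature genes and -3.13 for cell cycle genes.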
